A study of Mus musculus with 19 samples.

Results

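The SWI/SNF remodelling subunits are 10 genes, Smarca4, Smarca2, Arid1a, Arid1b, Arid2, Pbrm1, Smarcb1, Smarcc1, Smarcd1 and Smarce1, chosen by symbol from the 21086 genes of the expression table. All 10 were found once, and all 10 passed the filter on low values. They were followed across 19 lymphomas of Em-Myc mice, which carry a Myc transgene under the immunoglobulin heavy chain enhancer, active in B cells. Every mouse carried the transgene, so no tissue without it was compared. The Bptf+/Δ tumours (HET, 1 deleted Bptf allele) were 4 of late onset at 30 to 66 weeks (HET_late) and 4 of early onset at 8 to 13 weeks (HET_early). The Bptf+/+ tumours (WT) were 5 of late onset at 28 to 76 weeks (WT_late) and 6 of early onset at 9 to 17 weeks (WT_early). Bptf encodes the largest subunit of NURF, another chromatin remodeller. Each library was made from a whole tumour, and the number in its name only identifies it.

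SWI/SNF complexes use the energy of ATP to slide or evict nucleosomes and so open chromatin at enhancers and promoters. Each complex holds a single ATPase, encoded by Smarca4 or Smarca2. In the canonical BAF and PBAF forms the core includes the products of Smarcb1, Smarcc1, Smarcd1 and Smarce1. The canonical BAF form carries the product of Arid1a or Arid1b, whereas the PBAF form carries those of Arid2 and Pbrm1. Several of these genes are recurrently mutated in human cancers, ARID1A and SMARCA4 among B cell lymphomas as well. The question put to the data here was whether the transcripts of this second remodeller differed with Bptf genotype, with onset class, or with the level of Myc itself.

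The libraries held 8297856 to 12497732 recovered reads. Bptf had a normalised read count of 407.6 to 1573.3 in HET tumours and 1664.7 to 2585.7 in WT tumours, so the groups did not overlap. The library HET_early_2 stood apart. Its summed level of 9 pan-B markers was 782.9, against at least 8535.2 in every WT library, and its summed levels of 8 stromal, 4 cartilage and 4 skeletal muscle markers were 788867.4, 730324.6 and 162417.1. It also had the lowest Myc (1232.2) and the lowest sum of 16 proliferation markers (8237.4). None of the 9 pan-B markers was at 0 throughout a group, and the other libraries had pan-B sums of up to 38122.7. Salivary genes led WT_early_6, and Igha led HET_late_4. Several comparisons of the 10 subunits are given below with and without HET_early_2. The ratios of Arid1b and Pbrm1 to Arid1a and the Pearson correlations are described only with it. In bulk tumours, fewer cells of a type and less RNA per cell cannot be told apart.

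Read counts grow with transcript length, so levels of different subunits were compared as normalised read count per kilobase of the transcript with the longest coding sequence (GENCODE M21). By the median over 19 libraries, Smarca4 had the highest level at 807.3 per kilobase, with a range of 194.8 to 1833.2. The core subunits Smarcb1, Smarce1 and Smarcc1 came next at 738.9, 700.1 and 561.3 per kilobase. Arid1a, at 379.2, had a higher median than Pbrm1 (262.0), Smarcd1 (191.5), Arid2 (173.5) and Arid1b (169.0). Smarca2, the other ATPase gene, was last at 78.9 per kilobase (36.5 to 132.9). The ranges of every pair of neighbours in this order overlapped. Smarca4 exceeded Smarcb1 in 10 of 19 libraries, and Arid2 exceeded Arid1b in 7, so these neighbours had no fixed order. In contrast, Pbrm1 exceeded Smarcd1 in 18 libraries, and Smarce1 exceeded Smarcc1 in 17. The place of Smarcb1 depended on the length used, since with the union of all annotated exons it had 154.7 per kilobase and rank 7.

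**Figure D1:**
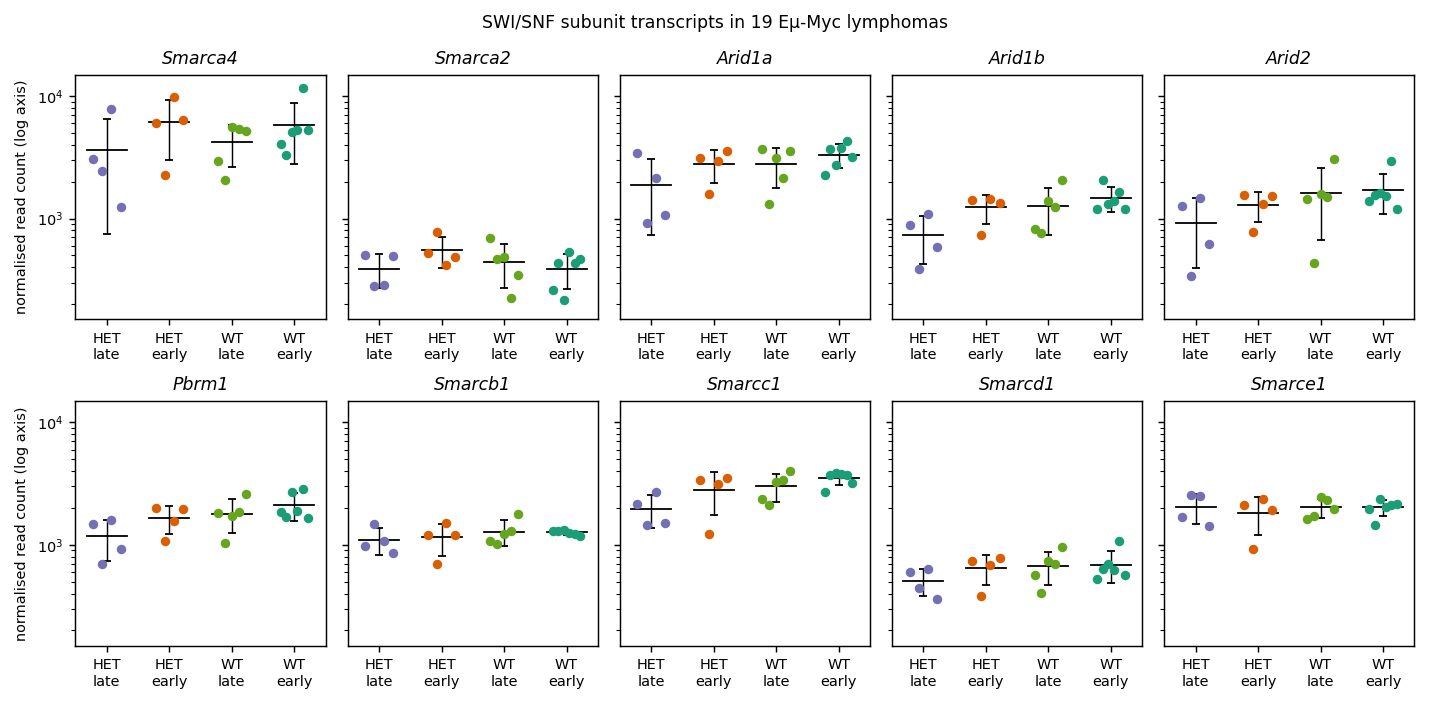
Normalised read count (log axis) of the 10 subunits in each library (points), with the mean (line) and SD (bars) of HET_late, HET_early, WT_late and WT_early tumours. The groups overlapped for every gene, and Smarca4 spread most, between 1242.1 and 11688.7.

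Smarca4, the ATPase required for early lymphoid development in mice, varied most among the 10 (GRCm38 chromosome 9, 21616169 to 21704230, plus strand). Its normalised read count was 3061.3, 2449.9, 7850.7 and 1242.1 in HET_late and 6032.3, 2257.1, 9903.3 and 6394.1 in HET_early tumours. It was 2973.5, 2059.9, 5558.2, 5350.3 and 5147.5 in WT_late tumours, and in WT_early it ran from 3279.0 over a median of 5197.2 to 11688.7. The highest library was thus 9.41 times the lowest. Libraries of both genotypes lay at the low end (HET_late_4, WT_late_2, HET_early_2 and HET_late_2) and at the high end (WT_early_5, HET_early_3 and HET_late_3), and the groups overlapped. The difference was -0.20 ± 0.34 on the log2 scale (SE) for HET minus WT, averaged over onset, and -0.66 ± 0.34 for late minus early, averaged over genotype. Neither passed limma's test over all genes (adjusted p = 0.812 and 0.299). Without HET_early_2 the genotype value was 0.012, and without HET_late_4 it was 0.007.

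Smarca2 encodes the alternative ATPase, which accumulates in resting cells in culture (chromosome 19, 26605050 to 26778322, plus strand). It had 499.2, 280.9, 288.7 and 492.3 normalised reads in HET_late and 519.6, 778.9, 420.4 and 483.2 in HET_early tumours. In WT_late tumours it had 686.9, 462.7, 484.4, 222.3 and 348.3, and in WT_early it ran from 214.2 over a median of 432.8 to 529.2. The highest value was in HET_early_2, where the other 9 subunits lay below their own medians. Genotype and onset differences were 0.20 ± 0.23 (SE) and -0.18 ± 0.23 on the log2 scale (limma, adjusted p = 0.712 and 0.707). The genotype value was the only positive one among the 10 members.

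As a share of Smarca4 reads, Smarca2 reads came to 8.71% at the median of 19 libraries. The share was 3.68% to 39.6% in HET tumours (median 10.0%) and 3.73% to 23.1% in WT tumours (median 8.71%). HET_late_4 (39.6%) and HET_early_2 (34.5%) were highest, and the second of these is the library with few B cell transcripts. The log2 ratio averaged -3.15 ± 1.27 (SD, n = 8) in HET and -3.57 ± 0.91 (SD, n = 11) in WT tumours, a difference of 0.42 (exact two-sided permutation p = 0.402). In late tumours it averaged -3.12 ± 1.17 (SD, n = 9), against -3.64 ± 0.95 (SD, n = 10) in early tumours (difference 0.52, exact two-sided permutation p = 0.298). The difference between HET and WT was 0.19 without HET_early_2 and 0.17 without HET_late_4, and that between late and early tumours was 0.75 without HET_early_2 and 0.30 without HET_late_4. Smarca4 had more reads than Smarca2 in all 19 libraries.

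Arid1a and Arid1b encode the mutually exclusive DNA-binding subunits of canonical BAF (chromosome 4, 133679008 to 133756769, minus strand, and chromosome 17, 4994332 to 5347656, plus strand). Arid1a had 3436.7, 924.7, 2138.1 and 1078.0 normalised reads in HET_late and 3104.6, 1599.1, 2935.6 and 3531.7 in HET_early tumours. In WT_late it had 3671.5, 1320.9, 3134.0, 2147.1 and 3555.2, and in WT_early it ran from 2253.5 over a median of 3440.7 to 4319.1. HET_late_2, HET_late_4 and WT_late_2 lay below every early library, and the groups overlapped. Arid1b had 887.7, 390.3, 1091.9 and 585.7 in HET_late and 1421.9, 728.4, 1430.3 and 1350.4 in HET_early tumours. In WT_late tumours Arid1b had 819.7, 756.3, 1401.3, 1234.9 and 2057.1, and in WT_early it ran from 1191.2 over a median of 1358.8 to 2062.5. For Arid1b, 3 HET libraries lay below every WT library, and the groups still overlapped.

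Arid1b reads were 45.8% of Arid1a reads at the median, with a range of 22.3% to 57.9%. WT_late_1 (22.3%) and HET_late_1 (25.8%) were the lowest, and the next library was at 37.1%, so a low share was seen in a late tumour of each genotype. The median was 45.7% in HET and 47.9% in WT tumours. The log2 ratio differed by -0.06 between HET and WT tumours and by -0.02 between late and early tumours (exact two-sided permutation p = 0.76 and 0.898). Pbrm1 reads, a marker of PBAF, were 42.7% to 98% of Arid1a reads, with a median of 66.1% in HET and 66.5% in WT tumours (log2 difference -0.03, exact two-sided permutation p = 0.856). Between late and early tumours this ratio differed by 0.12 on the log2 scale (exact two-sided permutation p = 0.481). These were 6 comparisons of ratios, and the lowest adjusted p over them was 0.898.

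Arid2, the ARID subunit that defines PBAF, lies on chromosome 15 (96287518 to 96404992, plus strand), the chromosome of Myc. It had 1269.3, 339.9, 1475.7 and 618.8 normalised reads in HET_late and 1552.3, 782.9, 1317.6 and 1529.7 in HET_early tumours. It had 1438.4, 434.2, 1600.1, 1506.7 and 3089.2 in WT_late tumours, and in WT_early it ran from 1206.8 over a median of 1545.8 to 2931.3. Most libraries lay close together, with WT_late_5 and WT_early_5 far above and HET_late_2, WT_late_2 and HET_late_4 far below. Pbrm1, the bromodomain subunit of PBAF, lies on chromosome 14 (31019138 to 31121592, plus strand). It had 1467.9, 692.8, 1604.8 and 921.4 in HET_late and 2005.8, 1082.0, 1558.4 and 1950.6 in HET_early tumours. In WT_late it had 1802.6, 1031.5, 1720.6, 1862.0 and 2586.7, and in WT_early it ran from 1660.4 over a median of 1873.5 to 2873.4. HET_late_2 and HET_late_4 were below every WT library, and the groups overlapped. Pbrm1 shares 33461 bases of its span with Smim4 and 15 with Gnl3 on the opposite strand. Without a stated strand setting, reads of these genes and of Pbrm1 may not have been told apart.

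Smarcc1, the scaffold subunit around which the core assembles, lies on chromosome 9 (110117708 to 110240178, plus strand) and overlaps Dhx30 by 123 bases on the opposite strand. It had 2164.8, 1451.8, 2685.6 and 1501.1 normalised reads in HET_late and 3413.8, 1225.6, 3113.6 and 3543.5 in HET_early tumours. In WT_late it had 2369.6, 2129.2, 3266.5, 3356.6 and 4040.1, and in WT_early it ran from 2715.3 over a median of 3723.9 to 3859.1. The 3 lowest libraries, HET_early_2, HET_late_2 and HET_late_4, were all HET and below every WT library. Smarcb1, a core subunit that contacts the nucleosome (chromosome 10, 75896769 to 75921617, minus strand), varied least within WT_early. It averaged 1099.0 ± 273.4 (SD, n = 4) in HET_late, 1148.2 ± 331.5 (SD, n = 4) in HET_early, 1281.8 ± 310.1 (SD, n = 5) in WT_late and 1262.1 ± 50 (SD, n = 6) in WT_early tumours. Smarcd1, a core subunit that bridges to transcription factors (chromosome 15, 99702129 to 99713991, plus strand), ran from 361.3 to 787.2 in HET and 403.6 to 1084.2 in WT tumours. Smarce1, an HMG-box subunit (chromosome 11, 99209047 to 99231017, minus strand), ran from 930.5 to 2559.4 in HET and 1447.9 to 2443.5 in WT tumours.

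Averaged over onset, 9 of the 10 subunits had a lower mean log2 level in HET than in WT tumours, and none passed the test. The median difference of the 10 was -0.35 on the log2 scale, beside 0.06 over all genes, of which 55.8% were positive. Arid2 (-0.58 ± 0.32, SE), Smarcc1 (-0.53 ± 0.20), Arid1b (-0.52 ± 0.22), Pbrm1 (-0.50 ± 0.20) and Arid1a (-0.47 ± 0.26) were the most negative. The other core subunits Smarcd1 (-0.24 ± 0.19), Smarcb1 (-0.21 ± 0.15) and Smarce1 (-0.11 ± 0.18) lay nearer to 0. In limma over 19927 genes the adjusted p was 0.493 for Smarcc1, Arid1b and Pbrm1 and up to 0.812 for the rest. The background was 0.0% of genes called, with 1988 genes at an unadjusted p under 0.05. Bptf itself, at -0.92 ± 0.19 (SE), was not called either (limma adjusted p = 0.493). Not passing this test therefore does not show equal levels. DESeq2 called 26 genes (0.13%) and edgeR 0 (0.0%), and neither called a subunit. The authors' deposited table likewise held 0 of the 10 under 0.05 for HET against WT, with a lowest adjusted p of 0.2922. Bptf had an adjusted p of 0.0381 in that deposited comparison.

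Without HET_early_2 the median of the 10 was -0.23, with 7 of 10 negative, and Smarcc1 was at -0.35. Without HET_early_2, HET_late_4 and WT_early_6 together the median was -0.15. Summed T cell markers ran from 572.7 to 4234.4 in HET and 194.8 to 5829.0 in WT tumours, and summed stromal markers from 3475.3 to 788867.4 in HET and 2882.1 to 27462.5 in WT tumours. With a score of T cell, macrophage, stromal and endothelial markers as a covariate, the median of the 10 was -0.18. The 95% confidence intervals for HET minus WT ran from -0.91 to 0.52 for Smarca4, from -1.26 to 0.10 for Arid2 and from -0.48 to 0.26 for Smarce1.

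In late tumours alone, all 10 subunits had negative genotype differences (median -0.53, against 0.02 over all genes). Arid2 (-0.78), Arid1b (-0.77), Arid1a (-0.65), Smarcc1 (-0.64) and Pbrm1 (-0.64) were again the most negative, and Smarce1 was at -0.01. None passed in limma, where the adjusted p was 0.796 to 0.997 and the background was 0.0% of genes. Bptf was not called there either (-1.36, limma adjusted p = 0.773). Long transcripts were lowest in the HET_late group, as described below, and with that measure as a covariate the median was -0.25 with 9 of 10 negative. In early tumours the median was -0.24, with Smarca2 at 0.53 ± 0.32 (SE) and Smarca4 at 0.03, and again none passed (0.0% of genes called, limma adjusted p of 0.488 to 0.984). Without HET_early_2 the early median was 0.0, with 5 subunits positive and 5 negative, and with the non-tumour score as a covariate it was 0.10, with 9 of 10 positive. The interaction, the late minus the early genotype difference, had a median of -0.33 and called 0 of 10 subunits and 0.0% of genes in limma. This median was -0.55 without HET_early_2, -0.54 without WT_late_2, -0.21 without HET_early_4, -0.15 without HET_late_2, -0.14 without HET_late_4, -0.13 without WT_late_5 and -0.04 with the long-transcript measure as a covariate. Smarca2 had the lowest adjusted p, 0.763, with an interaction of -0.67 ± 0.46 (SE). Its interval of -1.62 to 0.29 includes 0.

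Between late and early tumours, averaged over genotype, 9 of 10 subunits had negative differences (median -0.37, against -0.08 over all genes) and none passed. Smarca4 (-0.66 ± 0.34, SE), Arid1b (-0.55 ± 0.22), Arid1a (-0.52 ± 0.26), Arid2 (-0.46 ± 0.32), Pbrm1 (-0.39 ± 0.20) and Smarcc1 (-0.35 ± 0.20) were the most negative. Smarcb1 (-0.02 ± 0.15) and Smarce1 (0.10 ± 0.18) had values near 0. Without HET_early_2, Arid1b was at -0.66, Smarcc1 at -0.53, Pbrm1 at -0.49, Smarcd1 at -0.31, Smarcb1 at -0.135 and Smarce1 at -0.05. For each of these subunits that was the lowest value on leaving out 1 library. The lowest adjusted p in limma was 0.2, for Arid1b, and 0.437% of genes were called. By genotype, the median was -0.52 in HET tumours, where Smarca4 was at -0.89 and Arid1b at -0.79, and -0.25 in WT tumours, with 0.0% of genes called in both. The HET median was -0.32 without HET_late_2, -0.78 without HET_early_2 and -0.08 with the long-transcript measure as a covariate. The WT median was -0.01 without WT_late_2, with 5 subunits positive and 5 negative, -0.13 without WT_early_5, -0.37 without WT_late_5 and -0.10 with the long-transcript measure. For each subunit the difference between these onset values is the interaction above, in which none passed. Onset class and the age of the mouse cannot be told apart in this design.

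Low values gathered in a few libraries. In HET_late_2, 6 of the 10 subunits were more than 1 log2 unit below their own medians over the 19 libraries. Arid2 deviated by -2.12 (transcript of 8507 bases), Arid1a by -1.75 (8187), Arid1b by -1.66 (7309), Pbrm1 by -1.31 (6566), Smarcc1 by -1.14 (5717) and Smarca4 by -1.07 (6376). Smarcd1 (3307 bases) deviated by -0.51, while Smarce1 (2919 bases) and Smarcb1 (1660 bases) deviated by 0.33 and 0.28. Smarca2 (5862 bases), at -0.72, was less low than Smarcc1 with its shorter transcript. The same library stood apart in a measure over other genes. It compared 1182 genes with transcripts of at least 6000 bases with 2321 genes under 2000 bases, as the difference of their median log2 deviations. This long minus short difference was -1.74 in HET_late_2, -0.73 in HET_late_4, -0.36 in WT_late_2, -0.33 in HET_late_3 and -0.28 in WT_late_4. All other libraries lay between -0.04 and 0.64.

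**Figure D2:**
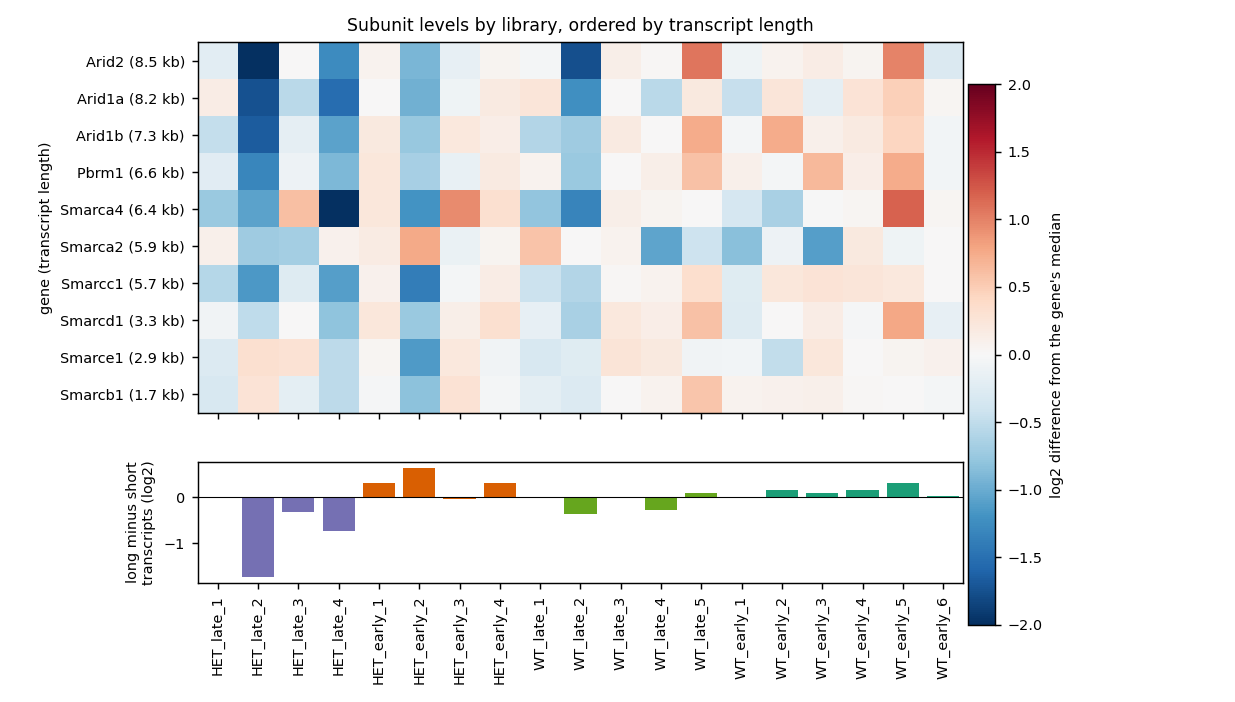
Log2 difference of each subunit (rows, ordered by transcript length) from its own median in each library (columns), above the long minus short transcript difference of that library (bars, log2). HET_late_2 has the lowest bar, -1.74, and is low in the long subunits but not in Smarce1 or Smarcb1.

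HET_late_4 and WT_late_2 had lower long subunits too, Arid1a at -1.53 and Arid2 at -1.76, but Smarca4 departed from the order of length in both. In HET_late_4 it was the lowest at -2.05. In WT_late_2, at -1.32, it was below the longer Arid1a (-1.23), Pbrm1 (-0.74) and Arid1b (-0.71). The short subunits Smarcd1 (-0.81), Smarcb1 (-0.53) and Smarce1 (-0.525) were low in HET_late_4 as well. In WT_late_2 these 3 were at -0.65, -0.27 and -0.25. Smarca2 was at 0.09 in HET_late_4 and 0.0 in WT_late_2, so it was not low there. In HET_early_2, too, the low subunits included short transcripts. Smarcb1 was at -0.81 there, and the lowest were Smarcc1 (-1.39), Smarca4 (-1.19) and Smarce1 (-1.13), whereas the long minus short difference of this library was 0.64, the highest of all libraries. By group, the median long minus short difference was -0.53 in HET_late, 0.31 in HET_early, 0.00 in WT_late and 0.12 in WT_early tumours. With this difference as a covariate, the onset values of Arid2, Arid1a and Pbrm1 were 0.32, 0.09 and 0.01, the median of the 10 was -0.07, and no gene was called. The genotype median was then -0.27. What made long transcripts low in those libraries was not tested.

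**Figure D3:**
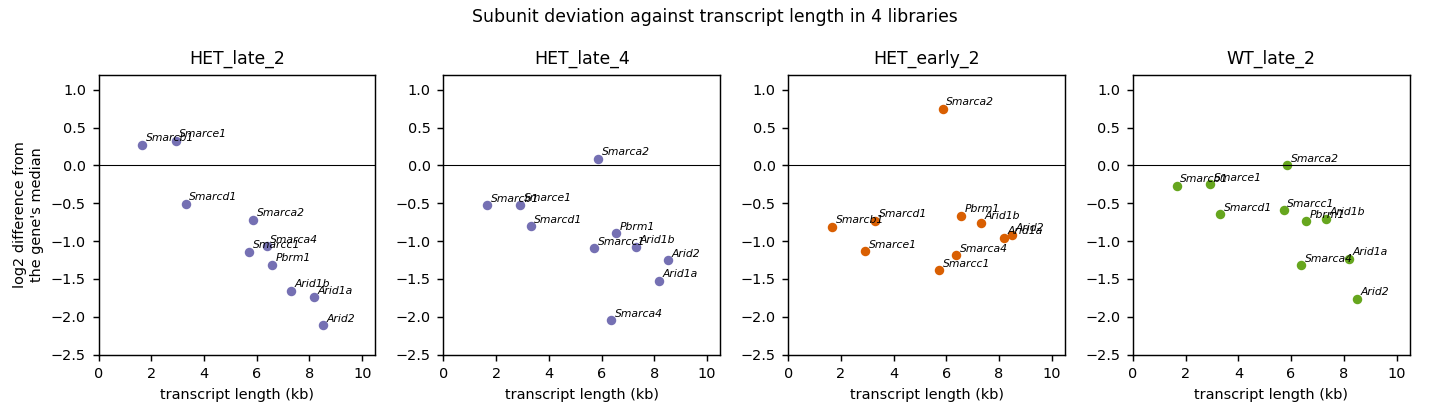
Log2 difference of each subunit from its own median (vertical) against its transcript length in kilobases (horizontal) in HET_late_2, HET_late_4, HET_early_2 and WT_late_2. In HET_late_2 the points descend from Smarcb1 and Smarce1 to Arid2 at -2.12, while in HET_early_2 they do not.

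Myc within groups gave the only calls among the subunits. The slope of each gene on log2 Myc was fitted together with the 4 group means, so it describes differences between tumours of the same group. In limma 7 of 10 subunits passed, all with higher levels at higher Myc, against 20.0% of 19926 genes called in either direction and 8.63% called with a positive slope. Smarcc1 rose by 0.43 ± 0.07 (SE) on the log2 scale per doubling of Myc (adjusted p = 0.00144) and Arid1b by 0.42 ± 0.10 (adjusted p = 0.00992). Smarcb1 (0.25 ± 0.07), Smarcd1 (0.33 ± 0.09), Arid2 (0.55 ± 0.16), Pbrm1 (0.33 ± 0.10) and Arid1a (0.40 ± 0.13) also passed, with adjusted p of 0.0205 to 0.041. Smarca4 (0.50 ± 0.18, adjusted p = 0.0579) and Smarce1 (0.25 ± 0.09, adjusted p = 0.0694) did not pass. Smarca2 had the only negative slope, -0.26 ± 0.13 (adjusted p = 0.161).

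These calls depended on which libraries were fitted, among them those with little Myc. The call of Arid1a was lost in 11 of the 19 fits that left out 1 library (limma adjusted p of 0.0232 to 0.23). Without HET_early_2, 0 of 10 subunits passed, with 1.61% of genes called and 0.959% called with a positive slope, and the lowest limma adjusted p among the subunits was 0.0665, for Smarcc1. The slopes were then 0.34 for Smarcc1, 0.19 for Smarcb1 and 0.09 for Smarce1, lower than over all 19 libraries, and 0.46 for Arid1b and 0.70 for Arid2, higher than over all 19. Without WT_late_2, which had the second lowest Myc (2270.9), 3 subunits passed (21.4% of genes called, 9.16% with a positive slope). Without WT_late_5, with Myc at 14846.9, 4 passed (19.5% of genes called, 8.32% with a positive slope). With the score of non-tumour cells as a covariate no subunit passed (0.00502% of genes called), and all 10 slopes were positive, that of Smarca2 being 0.15. Myc ran from 1232.2 to 9189.8 in HET and 2270.9 to 16554.5 in WT tumours, and HET_early_2, with the lowest Myc, also had the lowest pan-B and proliferation sums.

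**Figure D4:**
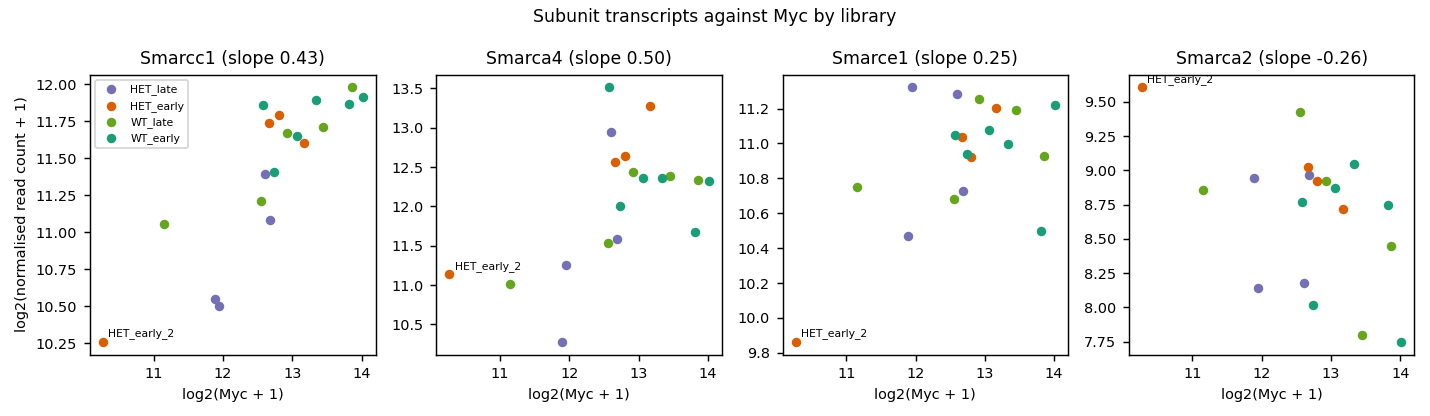
Log2 level of Smarcc1, Smarca4, Smarce1 and Smarca2 (vertical) against log2 Myc (horizontal) in the 19 libraries, coloured by group, with the slope within groups above each panel. HET_early_2 lies at the lowest Myc in every panel, low in Smarcc1, Smarca4 and Smarce1 and high in Smarca2.

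The promoters of 3 subunits are shown: Pbrm1, the member whose window holds a Myc motif, Smarcc1, with the lowest adjusted p for its slope on Myc, and Smarca2, with the only negative slope. Differences between slopes were not tested. Myc and its partner Max bind the E-box CACGTG, and the GC box GGGCGG is a site of Sp1-family factors. RefSeq (GRCm38.p6) gave a window from 250 bases before to 50 after the start for 8 of the 10 subunits, not for Arid2 and Smarce1. CACGTG, searched on both strands, was in the window of 1 of 8, Pbrm1, where it begins at position -135, and in 7.15% of the 32851 RefSeq windows. Whether this motif belongs to Pbrm1 or to Gnl3, which overlaps it by 15 bases on the opposite strand, was not tested. GGGCGG or its reverse complement was in all 8, and in 35.7% of all windows, and CCAAT, also on both strands, was in 0 of 8 and in 37.4% of all windows. The 3 windows lie at chr14:31018888-31019187, chr9:110131774-110132073 and chr19:26604910-26605209, all on the plus strand, that of Smarcc1 inside its GENCODE span. Capitals mark CACGTG and GGGCGG or CCGCCC, which share no base.
Pbrm1: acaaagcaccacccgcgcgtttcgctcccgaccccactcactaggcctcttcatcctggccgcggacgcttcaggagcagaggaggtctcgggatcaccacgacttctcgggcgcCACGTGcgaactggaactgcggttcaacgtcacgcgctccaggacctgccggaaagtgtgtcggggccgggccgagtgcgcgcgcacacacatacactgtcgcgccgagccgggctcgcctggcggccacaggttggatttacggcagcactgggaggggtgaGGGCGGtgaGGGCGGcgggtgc
Smarcc1: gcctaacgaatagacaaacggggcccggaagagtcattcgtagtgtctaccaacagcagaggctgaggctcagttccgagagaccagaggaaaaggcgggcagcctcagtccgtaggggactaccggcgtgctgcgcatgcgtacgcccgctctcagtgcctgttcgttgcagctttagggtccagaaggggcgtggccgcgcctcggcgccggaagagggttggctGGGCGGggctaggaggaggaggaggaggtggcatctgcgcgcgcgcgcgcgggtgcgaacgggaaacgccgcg
Smarca2: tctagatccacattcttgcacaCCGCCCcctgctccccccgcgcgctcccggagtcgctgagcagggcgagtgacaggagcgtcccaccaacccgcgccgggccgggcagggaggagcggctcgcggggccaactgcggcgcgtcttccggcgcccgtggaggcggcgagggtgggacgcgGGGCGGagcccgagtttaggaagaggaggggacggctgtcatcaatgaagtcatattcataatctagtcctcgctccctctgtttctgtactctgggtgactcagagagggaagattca

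Lymphomas can gain or lose whole chromosomes. The subunits were therefore set beside the median log2 deviation of all genes on the same chromosome, with a mean of at least 50. Chromosome 15, with Myc, Arid2 and Smarcd1, was higher in WT_late_5 (0.53), WT_late_1 (0.38), WT_early_5 (0.35) and HET_late_1 (0.26) than in any other library. Arid2 deviated by 1.07 in WT_late_5 and 0.99 in WT_early_5, and Smarcd1 by 0.59 and 0.78. In WT_late_1 and HET_late_1, in contrast, Arid2 was at -0.04 and -0.22 and Smarcd1 at -0.16 and -0.07, below their chromosome. Pbrm1 was highest in WT_early_5 (0.74), WT_early_3 (0.65) and WT_late_5 (0.59), the 3 libraries in which chromosome 14 was highest (0.37, 0.28 and 0.31). Arid1b was highest in WT_early_2 (0.74) and WT_late_5 (0.74), where chromosome 17 was highest (0.41 and 0.37). Smarcb1 was highest in WT_late_5 (0.55), where chromosome 10 was highest (0.39). The libraries named here for Pbrm1, Arid1b and Smarcb1 were all WT. Chromosomes without a subunit were raised in HET libraries too, such as chromosome 18 in HET_early_3 (0.40) and chromosome 6 in HET_early_4 (0.31). With the median of its own chromosome subtracted from each gene, the HET minus WT median of the 10 was -0.29, against -0.35 without this step. Over all genes tested, the median was 0.105 with this step (15608 genes) and 0.062 without it (19927 genes). Smarca4 was highest in WT_early_5 (1.18), HET_early_3 (0.94) and HET_late_3 (0.61), where the median of chromosome 9 was 0.00, 0.00 and 0.01. Copy number was not measured, and its part in these values was not tested.

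**Figure D5:**
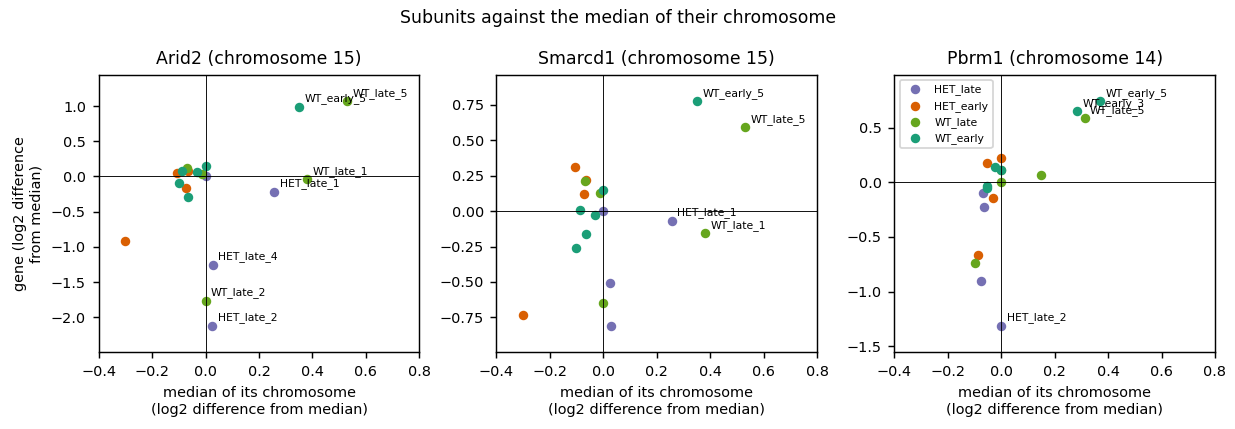
Log2 difference from its own median of Arid2, Smarcd1 and Pbrm1 (vertical) against the median log2 difference of all genes on the same chromosome (horizontal) in each library. Arid2 and Smarcd1 are high with chromosome 15 in WT_late_5 and WT_early_5 but not in WT_late_1 or HET_late_1.

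As a description over 19 libraries, each subunit was set against 9453 genes with a mean of at least 100. Arid2 and Pbrm1, the PBAF pair, were each among the closest genes to the other (Pearson r = 0.94, place 2 for Arid2 and place 6 for Pbrm1). Among the genes closest to Smarcc1 were Sin3a (0.97) and Agk (0.95), and the closest to Pbrm1 were Zfp646 (0.96), Asxl1 (0.95) and Sp1 (0.95). Arid1a was closest to Hcfc1 (0.94), Dip2b (0.94) and Srrm1 (0.93), and Arid1b to Mef2d (0.95), Proser1 (0.95) and Cramp1l (0.94). Outside the subunits, Nipbl (0.95), Asxl1 (0.94) and Zfp646 (0.94) were closest to Arid2, and Ccar2 (0.90), Asxl1 (0.89) and Acaca (0.89) to Smarcd1. Smarca4 was closest to Lgals9 (0.89), Fam53b (0.88) and Lgr5 (0.88), with Smarcd1 at 0.85 as the nearest subunit. Smarcb1 was closest to Larp7 (0.91), Chaf1b (0.90) and Umps (0.89), and Smarce1 to Frg1 (0.92), Hmgn2 (0.92) and Anp32a (0.91). Smarca2 followed none of the other subunits, the nearest being Arid1a at 0.18, and its closest genes were Camta2 (0.85), Kctd10 (0.84) and Tbc1d2b (0.84). The libraries that stand apart enter all of these values.

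Of the other SWI/SNF subunits, 20 were found in the table and 19 passed the filter. Actl6b did not, with a normalised read count of at most 1.5 in every library. In limma none of the 19 passed for genotype, onset or their interaction, with medians of -0.23, -0.01 and -0.02 on the log2 scale. DESeq2 called 1 of them for onset, beside 1878 of 19927 genes. Among those with a mean of at least 50, the genotype differences farthest from 0 were those of Bcl7a, a small BAF subunit mutated in human B cell lymphoma, and Bcl11a, a transcription factor that joins BAF in lymphoid cells. Bcl7a averaged 1576.0 ± 1420.2 (SD, n = 8) in HET and 2703.3 ± 1315.4 (SD, n = 11) in WT tumours (log2 difference -1.28, limma adjusted p = 0.493). Bcl11a averaged 828.5 ± 825.1 (SD, n = 8) in HET and 952.6 ± 497.5 (SD, n = 11) in WT tumours (-1.37, limma adjusted p = 0.52). Its HET values ran from 8.7 in HET_late_3 to 2394.0 in HET_late_1, with a median of 685.4, against 822.1 in WT. HET_early_2, with few B cell transcripts, had 27.9 for Bcl11a and the lowest Bcl7a, 179.4. Both genotype differences include this library. At the same limit on the mean, the onset differences farthest from 0 were those of Bcl7a (-1.17) and Gltscr1 (-0.68), a subunit of the non-canonical BAF form. For the interaction, again at a mean of at least 50, they were those of Gltscr1 (-1.06) and its paralog Bicral (-0.48). On Myc, 4 of the 19 passed in limma, about the share over all genes (20.0%). Actl6a (0.41, adjusted p = 0.0122), an actin-related subunit, Bcl7a (0.97, adjusted p = 0.0273) and the PBAF bromodomain gene Brd7 (0.27, adjusted p = 0.0201) rose with it. Smarcd3, the muscle and heart paralog of Smarcd1, fell by 1.13 per doubling (limma adjusted p = 0.00396). Its normalised read count was 214.0 in its highest library, HET_early_2, with a median of 7.8. Without HET_early_2, and with the non-tumour score as a covariate, 0 of the 19 passed.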

How the data were processed

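Polyadenylated RNA of 19 lymphomas was sequenced with a TruSeq kit on a Genome Analyzer IIx, per the labels' protocols. The submitters' processing notes name Cuffnorm, Cuffdiff, Cufflinks 2.2.1, TopHat2 2.1.1 and FastQC 0.11.5, with the builds mm10 and GRCm38. Not given in the sources used here are the tool, annotation and strand setting behind the table. As deposited, it holds a signal of normalised read counts, and 100% of values were whole reads within 0.01 reads after division by the value of 1 read. The authors' deposited log2 fold changes and adjusted p-values were used only where named.

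Values were tested as log2(value + 1) with limma 3.58.1 in R 4.3.3 on the 19927 genes that reached a value of 1 in 4 or more libraries, as 4 group means, with Benjamini-Hochberg adjustment over all genes and calls under 0.05. Fold changes of low genes are understated on this scale. edgeR 4.0.16 and DESeq2 1.42.0 were run on the recovered reads as alternatives, and the 3 tools were tested on simulated data. Ratios were tested with exact permutation, by enumerating every split, in Python 3.11.15 with pandas 2.3.3 and NumPy 2.4.6. Levels and lengths used GENCODE M21 (GRCm38), in which 16075 symbols were found. The reads carry no molecular identifiers, so amplified copies cannot be told from separate molecules and depth limits counting error only. Separate tumours are the replicates. The labels name no sequencing batch, so no within-batch values were computed. The members and lists were chosen with earlier results of these data known. Named genes are the 10 members, Bptf, Myc, other subunits that passed or had the 2 largest differences at a mean of at least 50, and the 3 genes most alike to each member, of which 1 is not reported here.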

Additional observations from a re-analysis of the deposited data

Results flagged for a closer look

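In 40 groups of 4 to 6 libraries, 4 had a highest or lowest library separated from the rest by a gap that is large for the group's range. By chance about 1 in 20 groups would be picked out this way. WT_early_5 had the highest Smarca4 of its group at 11688.7 and the highest Arid2 at 2931.3. HET_early_2 had the lowest Arid1b at 728.4 and the lowest Smarcc1 at 1225.6.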

How the results depend on the processing

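Subunits called for genotype, onset or interaction stayed at 0 of 10 under every setting run. No paired analysis was possible because the replicate numbers follow accession order and only name libraries. The cause of the shifts below was not tested, except that fewer libraries were fitted where some were left out. The settings that used the length difference or left out libraries together, and edgeR for the slope, were chosen after seeing the data.

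Genotype values changed sign for Smarca4 (0.333), Smarca2 (-0.202), Smarcd1 (0.017) and Smarce1 (0.156) with the non-tumour score as a covariate. They did so for Smarca4 (0.217) and Smarce1 (0.131) without the 3 libraries led by another gene than Eef1a1, and for Smarca4 (0.055) without HET_early_2 and HET_late_2. Onset values changed sign with the length difference as a covariate for Smarca2 (0.156), Arid1a (0.085), Arid2 (0.315), Pbrm1 (0.014) and Smarce1 (-0.149), and Smarce1 was -0.008 on log2 weeks of onset and -0.113 without HET_early_2 and HET_late_2. Interaction values changed sign with the length difference for Arid1a (0.380), Arid1b (0.016), Arid2 (0.578), Pbrm1 (0.227) and Smarce1 (-0.110), for Smarcb1 with quantile normalisation (0.016) and with its own chromosome subtracted (0.065), and for Smarce1 without HET_early_2 and HET_late_2 (-0.224). The slope of Smarca2 on Myc was 0.154 with the non-tumour score.

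Genes called by DESeq2 numbered 26 for genotype, 1878 for onset, 96 for the interaction, 409 for genotype in early tumours, 32 for genotype in late tumours, 121 for onset in WT and 1754 for onset in HET tumours. For onset averaged over genotype, where limma called 87, the count was 539 with edgeR, 681 with the non-tumour score, 55 with the own chromosome subtracted, 8 on log2 weeks, and 0 with the length difference, without the 3 libraries and without HET_early_2 and HET_late_2. For onset in HET tumours it was 235 with the non-tumour score, 59 with quantile normalisation, 21 in only the groups compared and 9 with the own chromosome subtracted. For the slope on Myc, 1 gene passed with the non-tumour score, 0 without the 2 libraries farthest from the median Myc, 59 without the 3 libraries and 472 without HET_early_2 and HET_late_2, with 0 subunits in each.

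On leaving out 1 library, genes called ran from 0 to 490 for onset, 0 to 257 for onset in HET, 0 to 2 for genotype in early and in late tumours, and 321 to 4502 for the slope on Myc, with 0 to 9 subunits. Signs turned within these ranges for Smarca4 (-0.436 to 0.012) and Smarce1 (-0.183 to 0.040) by genotype, Smarcb1 (-0.135 to 0.048) and Smarce1 (-0.052 to 0.177) by onset, and Arid2 (-0.804 to 0.014), Smarcb1 (-0.256 to 0.111) and Smarce1 (-0.100 to 0.357) in the interaction. They did so for Arid1b over Arid1a by genotype (-0.157 to 0.049) and onset (-0.074 to 0.098) and for Pbrm1 over Arid1a by genotype (-0.092 to 0.051). Each library held 8297856 reads or more, and how far depth or the spread between tumours limits these comparisons was not tested.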
